A study of Homo sapiens with 5 samples.

Results

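IRF3 and Smad3 peaks were searched at 10 genes for the receptors and signalling SMADs of the TGF-beta family: TGFBR1, TGFBR2, TGFBR3, ACVR1, BMPR2, SMAD1, SMAD2, SMAD3, SMAD4 and SMAD5. These were 10 of 20037 protein-coding genes with a position in RefSeq (GRCh38.p14), and a peak counted for a gene when it shared at least 1 base with the gene or with the 50 kb on either side of it. The 10 windows held 9 of the 19372 peaks listed in the 5 libraries.

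The peaks came from ChIP-seq of the human breast cancer cell line BT549, which is of the basal-like type. The cells had been infected with a lentiviral vector for constitutively active Smad3 (caSmad3) or for the control (HA). PolyI:C, a synthetic double-stranded RNA that triggers the antiviral response, had been transfected in 4 of the 5 libraries. IRF3 was precipitated from caSmad3 cells and from HA cells, both given polyI:C. Smad3 was precipitated from caSmad3 cells given polyI:C, from HA cells that had received TGF-beta after polyI:C, and from HA cells that had received TGF-beta after mock transfection. TGF-beta was given at 1 ng/ml for 1.5 h, and the other 3 libraries came from cells without it. Each group is 1 library. The effect of caSmad3 on Smad3 binding therefore cannot be told apart from the absence of TGF-beta. In that order the lists held 8067, 4125, 6041, 786 and 353 peaks. Read depth is unknown, the lists carry no score, and with single libraries no test between conditions was possible.

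Ligands of the TGF-beta family bring together type II and type I receptor kinases, and the type II kinase switches on the type I kinase. TGF-beta itself uses TGFBR2 (type II) and TGFBR1 (type I), and the main substrates of TGFBR1 are SMAD2 and SMAD3. Bone morphogenetic proteins (BMPs) use receptors such as BMPR2 (type II) and ACVR1 (type I), and ACVR1 has SMAD1 and SMAD5 as substrates. TGFBR3, or betaglycan, presents ligand to the kinases, and SMAD4 joins the phosphorylated SMADs of either branch. IRF3 is a transcription factor that viral RNA sensors activate, and it is known for switching on interferon beta.

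Of the 10 genes, 7 had a peak in at least 1 library and 3 (SMAD2, TGFBR1 and TGFBR3) had none, where 64.6% of all protein-coding genes had one. IRF3 peaks lay at SMAD1, SMAD4, SMAD5 and BMPR2, and Smad3 peaks at SMAD3, TGFBR2 and ACVR1. In these windows no gene of the 10 had peaks of both factors, where 27.7% of all genes did in caSmad3 cells, and within 100 kb 4 of the 10 had both, against 38.9% of all genes. All 3 Smad3 peaks came from caSmad3 cells, and the Smad3 lists of HA cells held a peak at 5.24% of all genes after polyI:C and at 2.04% after mock transfection. Of the 6 IRF3 peaks 5 were centred within 1 kb of a transcript start that RefSeq lists, including the overlapping peaks of both libraries at SMAD5. Of the 3 Smad3 peaks 0 were. The whole lists differed in the same direction, with 70.4% of IRF3 peaks in caSmad3 cells and 67.5% in HA cells. For Smad3 in caSmad3 cells the share was 30.0%.

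**Figure D1:**
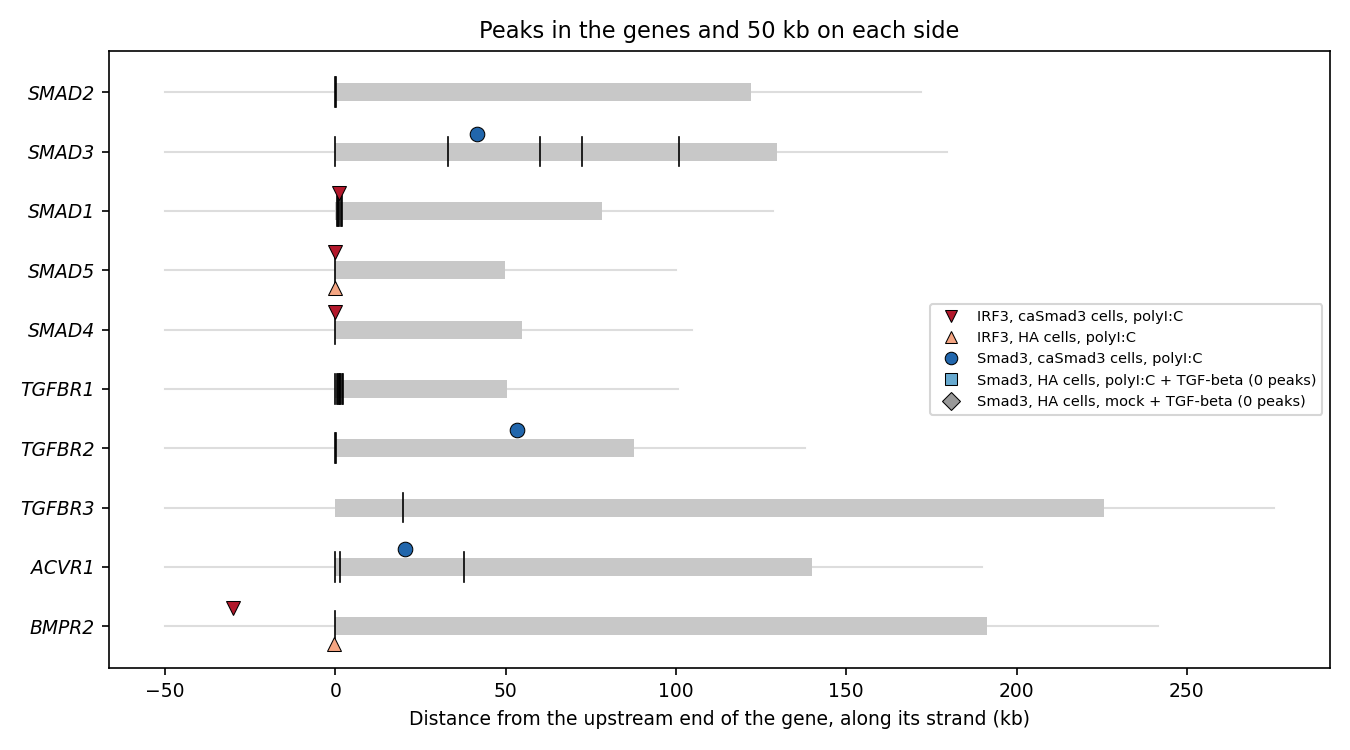
Each row is 1 gene, with its body as a grey bar, 50 kb on each side as a thin line, RefSeq transcript starts as black ticks and peak centres as symbols. The x axis is the distance in kb from the upstream end of the gene along its strand, and symbols are set above or below the bar only to keep them apart. The IRF3 symbols cluster at starts except at BMPR2 in caSmad3 cells, and the 3 Smad3 symbols lie inside SMAD3, TGFBR2 and ACVR1.

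The sequences below are the parts of the SMAD1, SMAD5 and SMAD4 promoters that the IRF3 peaks of caSmad3 cells covered, since these 3 peaks of that library overlapped a promoter window of the 10 genes. They are read 5′ to 3′ on the plus strand, along the gene, from RefSeq promoter windows (GRCh38.p14) that run from 250 bases before to 50 bases after a start, and they stop before the start. Capitals mark GGCGC or GGCCG, GC-rich motifs known to bind SMAD proteins, on either strand.
SMAD1, chr4:145481708-145481851: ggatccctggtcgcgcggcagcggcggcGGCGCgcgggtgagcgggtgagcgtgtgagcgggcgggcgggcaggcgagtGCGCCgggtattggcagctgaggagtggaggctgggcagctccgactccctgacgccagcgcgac
SMAD5, chr5:136132679-136132844: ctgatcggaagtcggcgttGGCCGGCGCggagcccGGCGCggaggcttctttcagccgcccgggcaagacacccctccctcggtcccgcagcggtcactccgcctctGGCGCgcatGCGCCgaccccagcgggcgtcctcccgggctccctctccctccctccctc
SMAD4, chr18:51029968-51030212: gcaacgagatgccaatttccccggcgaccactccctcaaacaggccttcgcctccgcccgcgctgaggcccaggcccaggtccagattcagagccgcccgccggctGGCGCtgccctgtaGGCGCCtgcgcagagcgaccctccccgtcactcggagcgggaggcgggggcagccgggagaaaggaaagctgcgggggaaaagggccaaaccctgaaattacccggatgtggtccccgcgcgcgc
GC content was 76.4% in the SMAD1 stretch, 75.3% in that of SMAD5 and 69.8% in that of SMAD4. GGCGC was found at 2, 4 and 3 positions in that order, counting both strands and counting overlapping matches apart, and GGCCG at 0, 1 and 0 positions. In SMAD5 the GGCCG match overlapped a GGCGC match. The SMAD binding element core CAGAC, the AP-1 motif TGANTCA and the IRF element (GAAA, any 2 bases and GAAA again) had 0 matches in all 3 stretches. Over the 22183 listed promoter windows of protein-coding genes, 60.0% held GGCGC, 59.4% GGCCG, 44.8% CAGAC, 6.15% TGANTCA and 3.17% the IRF element. Of the 29 windows of the 10 genes, 18 held GGCGC, 20 GGCCG, 11 CAGAC, 4 TGANTCA and 0 the IRF element. These are matches of letters in full windows of 300 bases, and the 3 printed stretches are shorter. Windows of the same gene can overlap, so the same match can count more than once. TGFBR1 has 8 of the 29 windows, and SMAD1 and SMAD3 have 5 each.

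SMAD5, a substrate of BMP receptors, was the only one of the 10 genes whose IRF3 peaks overlapped between libraries. The peak was 231 bases wide in caSmad3 cells (chr5:136132679-136132909) and 148 bases wide in HA cells (chr5:136132722-136132869). The HA peak lay wholly inside the caSmad3 peak, which extended 43 bases further below and 40 bases further above. Their centres were 51.0 bases upstream of the SMAD5 start in caSmad3 cells and 49.5 bases upstream in HA cells. Both peaks also touched SMAD5-AS1, a long non-coding RNA gene. In caSmad3 cells 53.8% of IRF3 peaks were narrower than the one at SMAD5, against 35.2% in HA cells. Width describes a peak within its own list and does not measure the amount of binding.

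SMAD4, the common partner of the signalling SMADs, had the widest of the 9 peaks. It was an IRF3 peak of 353 bases in caSmad3 cells (chr18:51029968-51030320), and 77.0% of that list was narrower. Its centre lay 69.0 bases upstream of the single listed start, and it covered 295 of the 300 bases of the promoter window. It also touched LOC107985152, a long non-coding RNA gene. HA cells had no IRF3 peak in the SMAD4 window, and the nearest lay 151 kb from the gene, at an end of ME2.

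SMAD1, the other BMP receptor substrate among these genes, had an IRF3 peak of 144 bases in caSmad3 cells (chr4:145481708-145481851). It was narrower than the median of that list, which was 215 bases, with 27.5% of peaks narrower still. RefSeq lists 5 starts for SMAD1, and the peak was centred 73.5 bases upstream of the one at 145481853, inside the body of the gene and downstream of the listed starts at 145481306 and 145481650. In HA cells the nearest IRF3 peak lay 382 kb from SMAD1, at ABCE1.

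BMPR2, a type II receptor of BMPs, counted in both IRF3 lists through different positions. The caSmad3 peak (chr2:202346269-202346367) was centred 30009 bases upstream of the BMPR2 start, and the HA peak (chr2:202375878-202375976) 400 bases upstream. The peaks were 29511 bases apart, and neither touched a gene of the RefSeq table. Each was 99 bases wide, the smallest width in either list, which 7.71% of peaks in caSmad3 cells and 8.58% in HA cells had. Within 10 kb of the gene BMPR2 had no IRF3 peak in caSmad3 cells, whereas its HA peak was 0.351 kb from the gene.

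SMAD3, a substrate of the TGF-beta receptors and the factor that was precipitated, held a Smad3 peak inside its own gene. The peak in caSmad3 cells (chr15:67107037-67107135) was 99 bases wide, the smallest width in that list, shared by 8.26% of its peaks. It lay 41484 bases downstream of the first SMAD3 start, at 32.0% of the length of the gene. The nearest of the 5 listed SMAD3 starts was 8407 bases from its centre. Exons and introns were not used here. The caSmad3 cells also carried vector-borne Smad3 sequence, and its part in this peak was not tested. In HA cells the nearest Smad3 peak to SMAD3 lay 879 kb from the gene after polyI:C and 1760 kb after mock transfection. Most genes were farther from one, as 37.4% and 31.1% of all genes had one as near or nearer.

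TGFBR2, the type II receptor of TGF-beta, held a Smad3 peak of 182 bases in caSmad3 cells (chr3:30659556-30659737). It lay 53290.5 bases downstream of the upstream end of the gene, at 60.7% of its length. In width it was near the middle of its list, which had a median of 178 bases. The nearest Smad3 peaks of HA cells were 3070 kb away after polyI:C and 6920 kb after mock transfection. Of all genes, 64.6% and 60.2% had one as near or nearer.

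ACVR1, a type I receptor, held a Smad3 peak of 200 bases in caSmad3 cells (chr2:157855814-157856013), with 56.8% of that list narrower. The gene is on the minus strand, and the peak lay 20416.5 bases downstream of its first start, at 14.6% of its length. It lay 17283.5 bases upstream of the start that RefSeq lists at 157838630. The nearest IRF3 peak to ACVR1 was 1300 kb away in caSmad3 cells and 1390 kb away in HA cells. These were the longest such distances among the 10 genes in either IRF3 list.

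**Figure D2:**
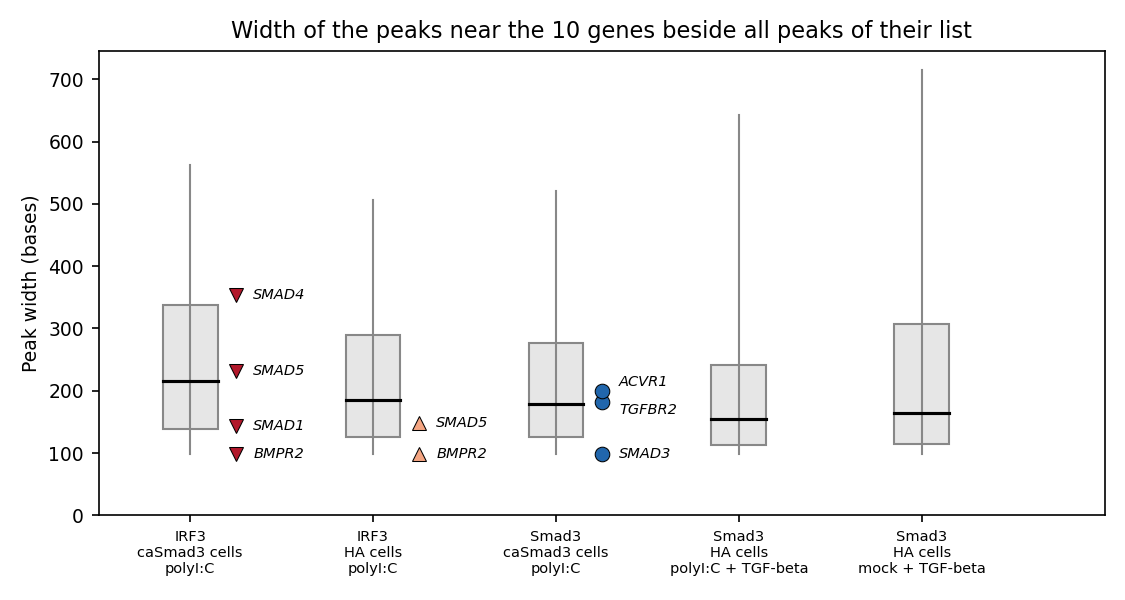
Peak width in bases is shown for each list, with grey boxes for the middle 50% of all its peaks, a black line for the median and thin lines from the 5th to the 95th percentile. Symbols are the peaks at the 10 genes, from 99 bases at BMPR2 and SMAD3 to 353 bases at SMAD4, and the Smad3 lists of HA cells have none.

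SMAD2, the other main substrate of the TGF-beta receptors, was farther from a peak than most genes in every list. The nearest lay 608 kb from the gene in the IRF3 list of caSmad3 cells, 658 kb in the IRF3 list of HA cells and 904 kb in the Smad3 list of caSmad3 cells. In the Smad3 lists of HA cells it lay 2480 kb away after polyI:C and 10900 kb after mock transfection. There 59.5% and 70.8% of all genes had a peak as near or nearer, against 82.0% to 92.0% in the lists above. For TGFBR1, the type I receptor of TGF-beta, the nearest peak was at 67.5 kb in both IRF3 lists and at 67.6 kb in the Smad3 list of caSmad3 cells, all at an end of ALG2. For the co-receptor gene TGFBR3 the nearest peak was at 179 kb in the same 3 lists, next to CDC7. In HA cells after polyI:C the nearest Smad3 peak was 563 kb from TGFBR1 and 293 kb from TGFBR3. After mock transfection it was 565 kb and 293 kb away. Most genes were farther from a Smad3 peak of HA cells. After polyI:C 28.6% and 18.1% of all genes had one as near or nearer, and after mock transfection 13.7% and 8.21%.

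The 50 kb limit left out several peaks narrowly, and the Smad3 counts of caSmad3 cells depend on it. They were 3 peaks at 3 genes within 50 kb and 8 peaks at 7 genes within 100 kb. Just outside 50 kb were Smad3 peaks of caSmad3 cells at 52125 bases from SMAD4, 59447 bases from SMAD3 and 60036 bases from SMAD1. An IRF3 peak of the same cells lay 60117 bases from SMAD1. Of the peaks that counted, the one closest to the limit was the caSmad3 peak at BMPR2, at 29960 bases.

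**Figure D3:**
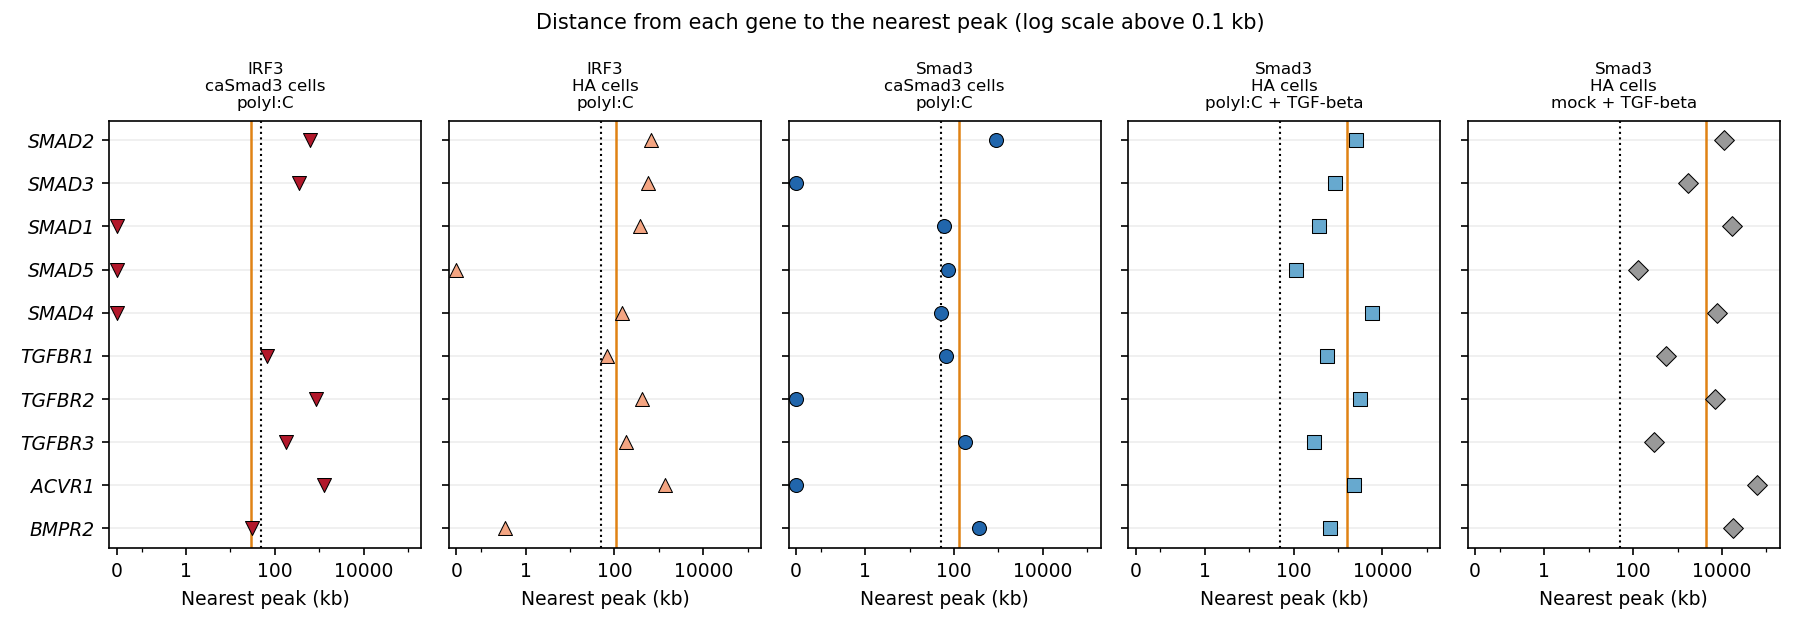
Each panel is 1 list, and each symbol is the distance in kb from a gene body to the nearest peak, on a scale that is logarithmic above 0.1 kb, with 0 for a peak that touches the gene. The dotted line is 50 kb and the orange line is the median over all protein-coding genes. In the IRF3 panels most symbols lie right of the orange line, and in the panels of Smad3 in HA cells every symbol lies right of the dotted line.

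Between the IRF3 libraries, caSmad3 cells had a peak in the window of 4 of the 10 genes and HA cells of 2. All protein-coding genes gave 57.1% in caSmad3 cells and 37.6% in HA cells. SMAD5 and BMPR2 counted in both lists, SMAD1 and SMAD4 in caSmad3 cells alone, and 0 genes in HA cells alone. Over all genes these classes held 35.9%, 21.2% and 1.66%. Of the 4 caSmad3 peaks at the 10 genes, 1 overlapped an HA peak, against 40.9% of the whole caSmad3 list. Of the 2 HA peaks, 1 overlapped a caSmad3 peak, against 82.8% of the whole HA list. With so few peaks these shares have 95% Clopper-Pearson intervals of 0.631% to 80.6% and 1.26% to 98.7%, so the difference from the whole lists was not detectable at this number. The median distance from the 10 genes to the nearest IRF3 peak was 123 kb in caSmad3 cells, against 28.9 kb over all genes, and 281 kb in HA cells, against 111 kb over all genes.

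For Smad3 after polyI:C, caSmad3 cells had a peak at 3 of the 10 genes and HA cells given TGF-beta at 0. Over all genes 33.8% had one in caSmad3 cells and 5.24% in HA cells, and 28.9% had one in caSmad3 cells alone, close to the share of the 10 genes. After mock transfection the HA list also gave 0, where 2.04% of all genes had a peak. Most other genes also had no peak in either HA list. A count of 0 allows a share of up to 0.382% of the 786 peaks after polyI:C and 0.85% of the 353 after mock transfection, counting 3 peaks as the limit. The median distance from the 10 genes to the nearest Smad3 peak was 63.8 kb in caSmad3 cells, 775 kb in HA cells after polyI:C and 7340 kb after mock transfection. Over all genes the medians were 129, 1610 and 4450 kb.

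In caSmad3 cells IRF3 and Smad3 were listed at different genes of the 10. IRF3 had 4, Smad3 had 3 and both had 0, where 27.7% of all genes had peaks of both factors in their windows, 29.4% of IRF3 alone and 6.11% of Smad3 alone. The 4 IRF3 peaks and the 3 Smad3 peaks shared no base. In the whole lists 22.8% of the IRF3 peaks overlapped a Smad3 peak, and 31.6% of the Smad3 peaks an IRF3 peak. The intervals of these counts of 0 reach 60.2% for the IRF3 peaks and 70.8% for the Smad3 peaks, so that a difference from the whole lists was not detectable here. The separation depends on the window: within 100 kb, SMAD1, SMAD4, SMAD5 and TGFBR1 had peaks of both factors in caSmad3 cells. Among the peaks inside the 50 kb windows, the IRF3 peak closest to a Smad3 peak of the same cells was that of SMAD5 in caSmad3 cells, where the Smad3 list of caSmad3 cells had its nearest peak 73919 bases away. In HA cells after polyI:C, IRF3 had SMAD5 and BMPR2 and Smad3 had 0 genes. Over all genes 33.8% had IRF3 alone, 1.42% Smad3 alone and only 3.81% both, so few genes could have shown both factors there.

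The location at starts or away from them also described the whole lists. A centre within 1 kb of a listed start was found for 70.4% of the IRF3 peaks of caSmad3 cells (95% Clopper-Pearson interval 69.4 to 71.4) and 67.5% of those of HA cells (66.0 to 68.9). The 10 genes gave 3 of 4 and 2 of 2. For Smad3 the shares were 30.0% in caSmad3 cells (28.9 to 31.2), 19.6% in HA cells after polyI:C (16.9 to 22.5) and 10.2% after mock transfection (7.25 to 13.8), and the 10 genes gave 0 of 3 in caSmad3 cells.

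The 10 genes are long, with bodies of 49.9 to 226 kb and a median of 105 kb, against a median of 24.1 kb over all protein-coding genes. Their windows covered 2.13 Mb. Per Mb of window they held 1.88 IRF3 peaks in caSmad3 cells and 0.939 in HA cells, where the windows of all protein-coding genes held 4.1 and 2.08. For Smad3 in caSmad3 cells the windows held 1.41 peaks per Mb, against 2.65 over all windows. Within the gene bodies alone the density of Smad3 peaks in caSmad3 cells was 2.66 per Mb at the 10 genes and 2.6 per Mb over all genes. The share of genes with a Smad3 peak in the body was 3 of 10, against 12.2% of all genes, so that count and density give different pictures of genes of this length.

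**Figure D4:**
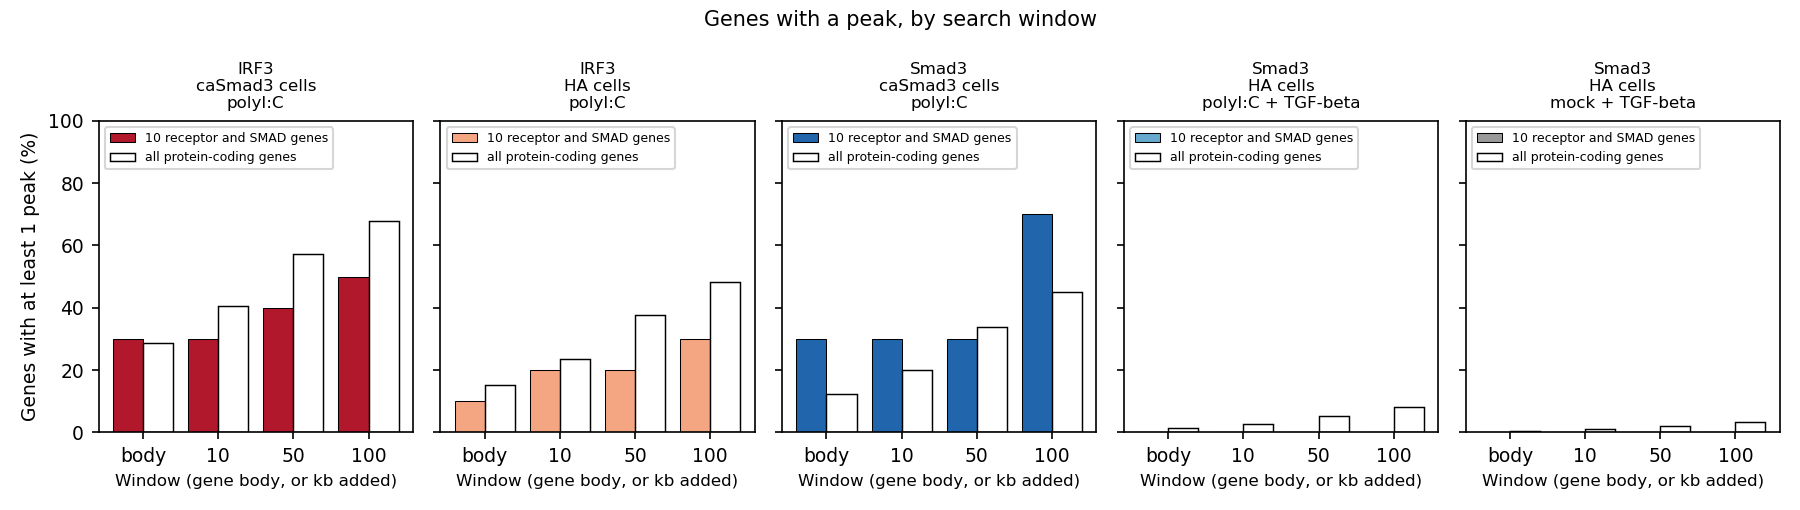
Bars give the percentage of genes with at least 1 peak in the gene body or within 10, 50 or 100 kb of it, filled for the 10 receptor and SMAD genes and open for all protein-coding genes, with 1 panel a list. At 50 kb the filled bars stand at 40% and 20% for IRF3 and 30% for Smad3 in caSmad3 cells, all below the open bars, and the Smad3 lists of HA cells have no filled bar. This order depends on the window: for Smad3 in caSmad3 cells the filled bar is above the open one in the gene body (30% against 12.2%), at 10 kb (30% against 19.9%) and at 100 kb (70% against 44.9%), and for IRF3 in caSmad3 cells in the gene body (30% against 28.8%).

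The other receptors, co-receptors and SMADs of the family were searched in the same way (ACVR1B, ACVR1C, ACVRL1, BMPR1A, BMPR1B, ACVR2A, ACVR2B, AMHR2, ENG, RGMB, SMAD6, SMAD7 and SMAD9). IRF3 had a peak in the window of 6 of these 13 genes in caSmad3 cells, against 57.1% of all genes, and of 1 in HA cells, against 37.6%. Smad3 had one at 5 of 13 in caSmad3 cells, against 33.8% of all genes, and at 0 in either list of HA cells, against 5.24% after polyI:C and 2.04% after mock transfection. Peaks of both factors in caSmad3 cells lay at 3 of the 13 genes, AMHR2, RGMB and SMAD6, near the 27.7% of all genes, and the difference from the 10 genes was not tested. At RGMB, which encodes a BMP co-receptor, an IRF3 peak of 487 bases in caSmad3 cells overlapped an IRF3 peak of 242 bases in HA cells and a Smad3 peak of 383 bases in caSmad3 cells. At SMAD6, an inhibitory SMAD, an IRF3 peak of 267 bases overlapped a Smad3 peak of 102 bases at the lower end of the gene in caSmad3 cells. At SMAD7, the other inhibitory SMAD, 4 Smad3 peaks of caSmad3 cells lay 1421 to 47324 bases from the gene, and no IRF3 peak was listed. BMPR1A and ACVR2A had an IRF3 peak near an end of the gene in caSmad3 cells alone, and BMPR1B had a Smad3 peak inside the gene. The peaks counted for AMHR2 and ENG were nearest to the ends of other genes (SP1, PRR13, PCBP2 and CDK9). So were the SMAD7 peaks at 47143 and 47324 bases, which were nearest to DYM. BMPR1A had a further IRF3 peak of caSmad3 cells at 38210 bases, nearest to LOC124902474.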

How the data were processed

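IRF3 and Smad3 ChIP-seq libraries were made with an Ion fragment kit and 15 PCR cycles, per the labels' protocols. Bowtie2 2.2.2.6, MACS2 2.1.0 and build hg38 are named in the submitters' processing notes. Neither labels nor headers state peak thresholds, an input control or how duplicates were handled. Per sample, 1 peak list was deposited by the authors, with positions in bases and no score, fold, count or p-value, and starts were converted to count from 1. Depth is therefore unknown.

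Groups came from the labels. Genes and transcript starts came from RefSeq tables of GRCh38.p14, which matched all 10 genes and all 13 further pathway genes by symbol. All 10 genes were named whatever their values. Genes on chromosomes 1 to 22, X and Y were kept (20037). Shared peaks had at least 1 base in common. Clopper-Pearson intervals (95%) and limits of 3 counts cover counting error only. No test was made, because each group holds 1 library. Counting was tested on simulated data, where 200 of 200 genes with planted peaks were counted correctly. The genes, the pathway list and the motifs were chosen with earlier results of these data known. No genome was used here, so sequences under peaks outside promoter windows were not read. Python 3.11.15, pandas 2.3.3 and scipy 1.17.1 were used. Alternatives were windows of 0, 10 and 100 kb, the wider 50% of peaks, peaks whose nearest gene end is the gene's own, and stricter or looser overlap.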

Additional observations from a re-analysis of the deposited data

How the results depend on the processing

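Windows of 100 kb gave 7 IRF3 peaks in caSmad3 cells, and 8 Smad3 peaks at 7 genes there. They also gave 2 IRF3 peaks of caSmad3 cells shared with HA cells and 2 shared with Smad3. Gene bodies alone left 1 IRF3 peak at 1 gene in HA cells. The wider 50% of peaks left 2 IRF3 peaks at 2 genes in caSmad3 cells, 0 at 0 genes in HA cells and 0 shared peaks. The percentage of protein-coding genes near a peak moved with the window, here in the order gene body, 10 kb and 100 kb. It was 28.8%, 40.5% and 67.7% for IRF3 in caSmad3 cells, and 15.1%, 23.6% and 48.3% in HA cells. For Smad3 it was 12.2%, 19.9% and 44.9% in caSmad3 cells, 1.47%, 2.53% and 8.18% in HA cells after polyI:C, and 0.524%, 0.918% and 3.41% after mock transfection. All 15 of these percentages lay outside the 95% interval of the value at 50 kb. The windows are nested, so a narrower one cannot give a higher percentage, and this comparison is no test. Of 81 alternative values of counts at the 10 genes, the 69 not listed here were equal to those reported or within 1.5 times of them. Many of these were 0 beside a reported 0, as for Smad3 in HA cells in each window. A 0 at 100 kb fixes a 0 in the narrower windows, and a list without peaks at the 10 genes can share none. Such values are therefore no test of stability. No paired analysis was possible because each group holds 1 library. Unknown depth limits each statement that a peak was not listed.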

Other observations

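Between 50 and 100 kb from the 10 genes lay 9 further peaks, 7 of them centred within 1 kb of an end of a neighbouring gene. At ALG2, 67.5 kb from TGFBR1, IRF3 peaks of 427 bases in caSmad3 cells and 284 bases in HA cells overlapped a Smad3 peak of 240 bases in caSmad3 cells. ALG2 encodes a mannosyltransferase of protein glycosylation. A further IRF3 peak of 109 bases in caSmad3 cells lay at an end of SEC61B. At MMAA, which encodes a protein of mitochondrial vitamin B12 metabolism and lies next to SMAD1, an IRF3 peak of 99 bases overlapped a Smad3 peak of 196 bases in caSmad3 cells. A Smad3 peak of 138 bases in caSmad3 cells, beyond SMAD3, overlapped AAGAB and was centred 101.5 bases from an end of IQCH.

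TGFBI, a matrix gene named for its induction by TGF-beta, is a neighbour of SMAD5, and all 3 Smad3 lists had their nearest peak to SMAD5 closer to an end of TGFBI than of any other protein-coding gene. The peak was 490 bases wide in caSmad3 cells and lay 74.1 kb from SMAD5. It was 182 bases wide at 112 kb in HA cells after polyI:C, and 105 bases wide at 126 kb after mock transfection. The caSmad3 peak was in neither HA list, whose closest peaks to it were 37512 bases away after polyI:C and 51315 bases after mock transfection. The mock list, with its nearest peak at 126 kb, did not hold the position at 112 kb. Whether the HA positions are also in the caSmad3 list, or the mock position in the polyI:C list, was not compared.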
